A study of Mus musculus and Homo sapiens with 43 samples.

Results

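The genes described here encode enzymes that cut and chemically modify tRNA. They were chosen by name, as gene symbols of the tRNA methyltransferase (Trmt and Trmu), NSUN, Elongator (Elp), Ctu, Tsen, Pus, Adat, Qtrt, RNase P (Rpp and Pop) and Osgep families together with Alkbh8. The pattern found 58 genes among the 24421 of the authors' deposited polysome table. Of these, 54 were also in the translational efficiency table and 57 in the RiboTag table. The pattern is a name and not a function, so it also took in members that act on ribosomal RNA, such as Nsun4 and Nsun5, and it left out tRNA enzymes with other names, of which a separate list of 57 is given further on.

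Lars, the leucyl-tRNA synthetase that loads leucine onto its tRNAs, was the gene targeted in the mouse libraries described here. The 43 libraries of the series also include charged and total tRNA from the human lines MCF10A and HCC1806, which were not used here. In 4T07, a single mouse mammary carcinoma line, control cells (shCtrl) and cells given 1 of 2 Lars hairpins (shLars3, shLars4) gave 18 polysome libraries, with 3 for each hairpin in mRNA carrying 1 to 2 ribosomes and 3 in mRNA carrying 3 or more. The same line gave 6 RNA-Seq libraries, 2 for each hairpin, and 1 pooled library of ribosome footprints, the stretches of mRNA shielded by ribosomes, which carries no hairpin label. The RiboTag libraries came from PyMT mammary tumors of C57BL/6J mice, 3 labelled Lars Het (Lars fl/wt) and 3 wt, and all 6 tumors carried rpl22HA fl/wt, MMTV-Cre+ and MMTV-PyMT+. The MMTV promoter is active mainly in mammary epithelium, where Cre both removes a floxed Lars allele and switches on the tagged ribosomal protein used to pull down ribosomes. The age of the mice is not in the labels.

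Transfer RNAs are made as longer precursors. RNase P removes the leader at the front end, the splicing endonuclease removes introns where present, and a large set of enzymes then alters single bases. Changes at the wobble base of the anticodon, where the third base of a codon is read, affect how well and how accurately codons are decoded. Changes elsewhere in the molecule mainly stabilise its fold.

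All values come from comparison tables that the authors deposited, which hold 1 value per gene and none per library. Depth per library and the spread between replicates are therefore not given beyond the deposited standard errors (SE). The labels do not say that replicates came from separate cultures, so p-values may measure technical spread. The name of the polysome comparison holds shLars and H_L, and its libraries are labelled high or low by fraction. Neither the direction nor the exact contrast of the polysome table is stated (fractions, hairpins or both), so its genes are described as lying on the negative or positive side of 0. Mean counts shared by many genes were each read as 1 read in 1 library. Values shared by at least 10 genes fit 27 libraries in the polysome table, 9 more than the labels list. Values shared by at least 50 genes fit 6 in the RiboTag table. Read the same way, size factors, which scale libraries for depth, ran from 0.31 to 4.51 in the polysome table and from 0.44 to 1.30 in the RiboTag table. They cannot be assigned to named libraries. Not every sum of such values was screened out, so 27 may be too many and the polysome range too wide. The authors' deposited polysome table put Lars itself at a log2 value of -0.82 (SE 0.30, DESeq2 adjusted p = 0.0285). Its mRNA stood at -1.46 and its footprints at -1.23 in the authors' deposited efficiency table, where the direction is knockdown over control. In the authors' deposited RiboTag table Lars stood at -0.75 (SE 0.43, DESeq2 unadjusted p = 0.0807), and the direction of that contrast is not stated.

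Shown side by side are promoters of 4 members with a DESeq2 adjusted p under 0.05 in the polysome comparison. Of these, 3 are from the negative side (Pop7, Rpp25l, Osgep) and 1 is from the positive side (Alkbh8). Other members past this threshold are not shown. Each line gives the 200 bases before the annotated start of the gene, 5′ to 3′ on the gene's own strand, from RefSeq on GRCm38.p6, the assembly behind mm10. Capitals mark matches to the motifs searched.
Pop7, chr5:137502430-137502629, minus strand: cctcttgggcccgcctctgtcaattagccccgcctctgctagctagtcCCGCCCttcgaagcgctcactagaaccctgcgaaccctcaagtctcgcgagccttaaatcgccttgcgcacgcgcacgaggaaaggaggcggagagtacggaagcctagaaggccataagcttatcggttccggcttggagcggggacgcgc
Rpp25l, chr4:41713518-41713717, minus strand: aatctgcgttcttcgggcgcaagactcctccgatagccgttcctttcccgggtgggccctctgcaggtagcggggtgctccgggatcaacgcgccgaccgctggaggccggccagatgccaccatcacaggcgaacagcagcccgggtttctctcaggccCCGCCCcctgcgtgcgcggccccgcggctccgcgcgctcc
Osgep, chr14:50924894-50925093, minus strand: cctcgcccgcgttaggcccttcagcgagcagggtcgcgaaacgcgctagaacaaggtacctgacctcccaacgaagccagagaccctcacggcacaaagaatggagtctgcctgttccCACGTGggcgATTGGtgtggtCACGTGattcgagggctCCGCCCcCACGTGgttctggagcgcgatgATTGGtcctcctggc
Alkbh8, chr9:3335031-3335230, plus strand: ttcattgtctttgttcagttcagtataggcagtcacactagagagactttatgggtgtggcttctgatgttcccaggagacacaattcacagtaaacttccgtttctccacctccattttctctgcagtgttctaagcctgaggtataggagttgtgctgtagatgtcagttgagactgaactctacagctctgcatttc
Pop7 and Rpp25l each held 1 GC-box, here read on the reverse strand (CCGCCC). The Osgep window held 3 E-boxes (CACGTG), a pair of CCAAT boxes read on the reverse strand (ATTGG) and 1 GC-box, also on the reverse strand. No motif was found in the Alkbh8 window, whose GC content of 44% was below the 62% of Pop7, 62.5% of Osgep and 71% of Rpp25l. Windows of negative-side members that are not shown varied. The Rpp14 window (polysome log2 value -0.83) held no motif at a GC content of 48.5%, and that of Adat2 (-0.64) held 3 at 47%. The Tsen15 window (-0.92) held 1 at 54.5%, and that of Trmt112 (-0.92) held 2 at 68%. No difference between the sides was tested.

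Over all members, 48 of 58 had a promoter window in RefSeq, and 20 of the 48 windows began at the outermost start of the gene. In the 250 bases before the start, on both strands, the GC-box (GGGCGG) was found in 26 members, or 54.2%, against 42.7% of 17492 protein-coding genes. The CCAAT box (CCAAT) was found in 13 members, or 27.1%, against 36.5%. The ETS motif (CCGGAAG) was found in 7 members, or 14.6%, against 9.15%, and the E-box in 5, or 10.4%, against 6.65%. A TATA box (TATAAA) was found only in Adat2, or 2.08% of members, against 12.4% of protein-coding genes. The NRF1 motif (GCGCATGC) was found in Trmt2a and the ATF4 element (TGATGNAA) in Pus7, each 2.08% of members against 2.98% and 3.26%. The YY1 motif (AAGATGGC) was in no member and in 262 of the protein-coding genes. Among the 9 RNase P members with a window, 5 held a GC-box, Pop4 held a CCAAT box, and none of the other 6 motifs was found. These shares are descriptions and were not tested.

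In the polysome comparison, more members lay on the negative side than on the positive side. Of the 56 members with an adjusted p, 18 passed on the negative side, or 32.1%, by the authors' deposited values (DESeq2 adjusted p under 0.05), where 17.5% of all 13485 tested genes passed. On the positive side, 2 members passed, or 3.57%, where 10.4% of all genes did. The median log2 value was -0.28 over members and -0.12 over all genes, and 44 of the 56 members lay below 0, or 78.6%, against 57.2% of all genes. The RNase P proteins supplied 9 of the 18. Outside that family 9 of 46 members passed on the negative side, or 19.6%, with a median of -0.23. The tested members had mean normalized counts of 67.7 to 5299 and SE of 0.15 to 0.40. Nsun7 and Rpp25, at mean counts of 0.294 and 0.903, had no adjusted p.

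**Figure D1:**
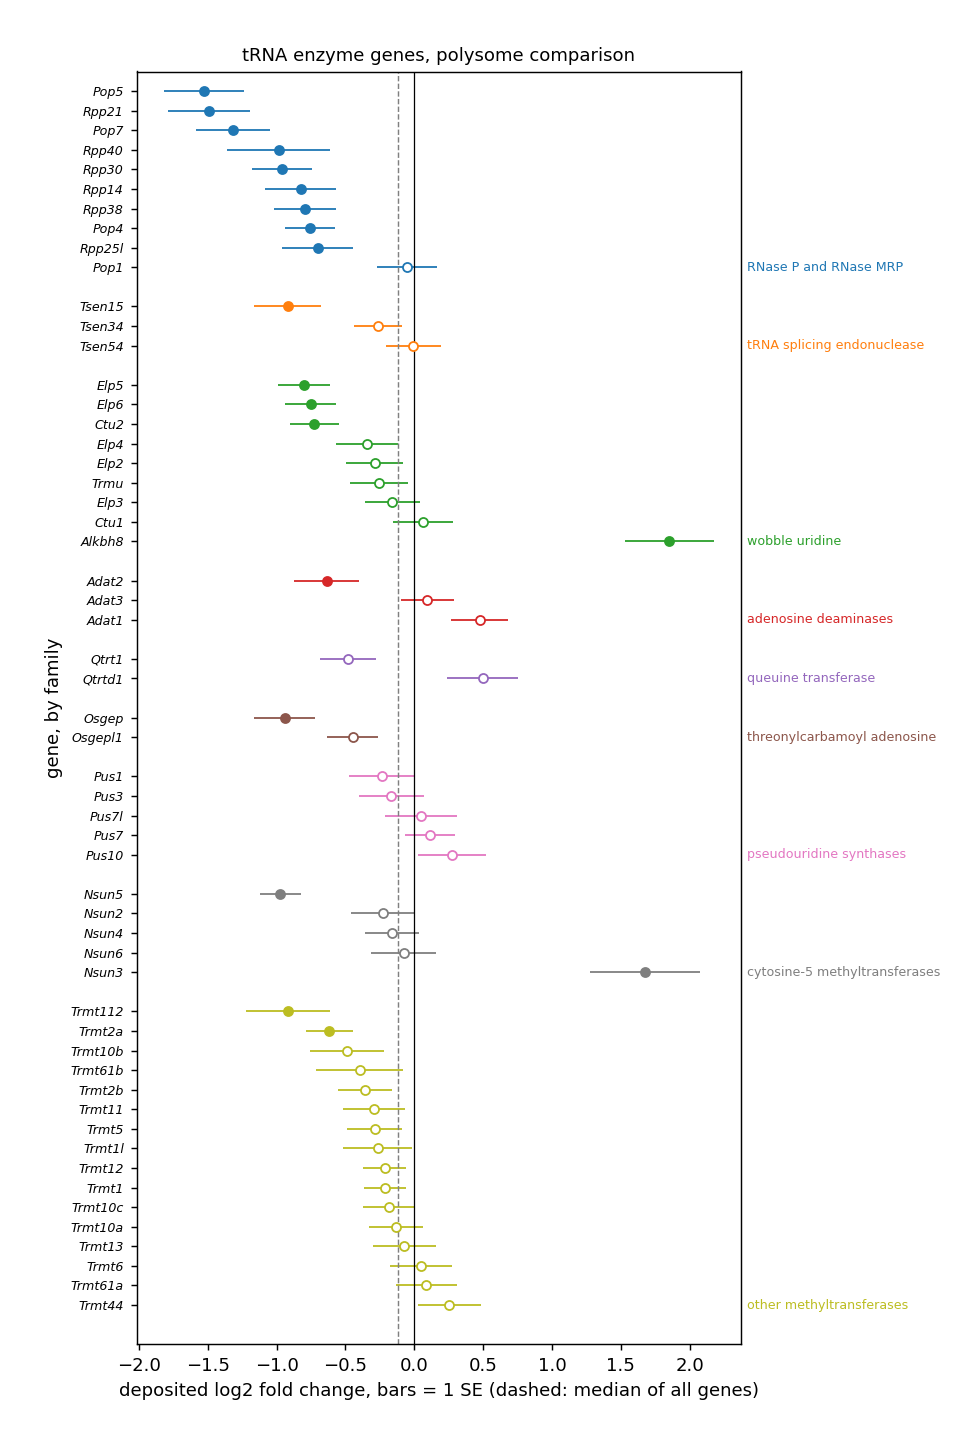
Polysome log2 values (horizontal axis, with bars of 1 SE on each side) of 55 of the tested members by enzyme family, from the authors' deposited table. Filled circles passed an adjusted p under 0.05, open circles did not, and the dashed line is the median of all genes at -0.12. RNase P members other than Pop1 lie on the left, and Alkbh8 and Nsun3 lie alone on the right.

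RNase P cleaves the leader from tRNA precursors and shares most of its proteins with RNase MRP, which cuts precursor ribosomal RNA. Of 10 tested proteins of these enzymes, 9 passed on the negative side, and the family median was -0.89. Pop5, a core protein that sits close to the catalytic RNA (mm10 chromosome 5, 115235588 to 115240972), stood lowest of all tested members in the authors' deposited table, 2.88-fold from no difference (log2 value -1.53, 95% interval -2.10 to -0.95, DESeq2 adjusted p = 6.34e-06). The authors' deposited table gave -1.49 (SE 0.30, adjusted p = 1.54e-05) for Rpp21, a zinc-binding protein of RNase P (chromosome 17, 36255673 to 36257846). For Pop7, which pairs with Rpp25 on the RNA (chromosome 5, 137501439 to 137502429), the authors' deposited value was -1.32 (SE 0.27, adjusted p = 2.12e-05). These 3 lay lower than every other tested member, and their intervals overlap those of the genes that follow.

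The other RNase P proteins lay close together. In the authors' deposited table Rpp40 stood at -0.99 (SE 0.37, adjusted p = 0.0338), Rpp30 at -0.96 (SE 0.22, adjusted p = 0.000173), Rpp14 at -0.83 (adjusted p = 0.00783), Rpp38 at -0.79 (adjusted p = 0.00263), Pop4 at -0.76 (adjusted p = 0.000483) and Rpp25l, a paralog of Rpp25, at -0.70 (adjusted p = 0.0286). The order within this group is not resolved at these SE. Pop1, the large scaffold protein of both enzymes, was the exception at -0.05 (SE 0.22, adjusted p = 0.889, 95% interval -0.48 to 0.38), and its interval lies above the values of the 9 others. Rpp14 shares its locus with Htd2, and Rpp38 overlaps Acbd7 and Nmt2. Overlap here and below is by genomic span on either strand, introns included, and whether exons overlap was not checked. The library kit does not mark strand, so reads from bases that exons of both genes share cannot be told apart. Of the 8 members of the family that overlap no other annotated gene, 7 passed.

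The splicing endonuclease cuts introns out of precursor tRNAs. Tsen34 is a catalytic subunit, and Tsen15 and Tsen54 are structural subunits. By the authors' deposited values Tsen15 passed, at -0.92 (SE 0.24, DESeq2 adjusted p = 0.00137). Neither Tsen34 nor Tsen54 did, with Tsen34 at -0.27 (adjusted p = 0.261) and Tsen54 at -0.01 (adjusted p = 0.987).

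The wobble uridine pathway held members on both sides. Elongator, whose catalytic subunit is Elp3 and whose accessory ring is Elp4, Elp5 and Elp6, starts the modification of this base. In the authors' deposited table Elp5 stood at -0.80 (SE 0.19, DESeq2 adjusted p = 0.000257) and Elp6 at -0.75 (SE 0.18, adjusted p = 0.000532), while Elp4 at -0.34, Elp2 at -0.29 and Elp3 at -0.16 did not pass (adjusted p 0.257 to 0.605). Ctu1 and Ctu2 together add sulfur to the wobble uridine in the cytosol. The authors' deposited table had Ctu2 past the threshold at -0.73 (SE 0.18, adjusted p = 0.000563) and Ctu1 not, at 0.06 (SE 0.22, adjusted p = 0.863). Trmu, which adds sulfur in mitochondria, stood at -0.26 (adjusted p = 0.389).

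Alkbh8, the methyltransferase and hydroxylase that completes the modification Elongator begins, stood highest of all tested members. Its authors' deposited value was 1.85 (95% interval 1.22 to 2.48, DESeq2 adjusted p = 3.89e-07), a 3.61-fold difference at a mean normalized count of 192. Alkbh8 (chromosome 9, 3335231 to 3391154) spans 55924 bases and overlaps Gm24918. Trmt112, a small protein that activates several methyltransferases, Alkbh8 among them, lay on the other side of the authors' deposited table, at -0.92 (SE 0.31, adjusted p = 0.0139). It overlaps Esrra and Prdx5.

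Of the adenosine deaminases, which turn adenosine into inosine, Adat2 was past the threshold in the authors' deposited table at -0.64 (SE 0.24, DESeq2 adjusted p = 0.0293), while its wobble-base partner Adat3 stood at 0.10 (adjusted p = 0.763) and Adat1 at 0.47 (adjusted p = 0.0714). Qtrt1, the catalytic subunit that puts queuine into the anticodon, stood at -0.48 (adjusted p = 0.0589) and its partner Qtrtd1 at 0.50 (adjusted p = 0.141). Osgep, the catalytic protein of the KEOPS complex, which attaches threonylcarbamoyl to adenosine in cytosolic tRNAs (chromosome 14, 50915374 to 50924893), passed at -0.94 (SE 0.22, adjusted p = 0.000313). Its mitochondrial relative Osgepl1 missed the threshold, at -0.45 (adjusted p = 0.056). None of the 5 pseudouridine synthases passed. They lay between -0.24 for Pus1 and 0.27 for Pus10, with Pus3 at -0.17, Pus7l at 0.05 and Pus7 at 0.11 (adjusted p 0.44 to 0.917).

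The 5 tested NSUN cytosine methyltransferases ran from -0.97 to 1.68. Nsun5, which methylates the large ribosomal RNA, had the smallest adjusted p of all members in the authors' deposited table, at -0.97 (SE 0.15, DESeq2 adjusted p = 3.43e-09). Nsun3, which methylates the mitochondrial methionine tRNA (chromosome 16, 62732444 to 62786884), had a deposited value of 1.68 (95% interval 0.89 to 2.46, adjusted p = 0.000387), a 3.19-fold difference resting on a mean normalized count of 67.7, the lowest of the tested members. Nsun2, which methylates many cytosolic tRNAs, stood at -0.23 (adjusted p = 0.516), Nsun4 at -0.16 and Nsun6 at -0.08. Nsun5 overlaps Pom121 and Nsun3 overlaps Gm52231.

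Of the 16 other methyltransferase genes, 2 passed on the negative side, Trmt112 and Trmt2a, or 12.5%, below the 17.5% of all genes. The authors' deposited value of Trmt2a, which makes methyluridine in cytosolic tRNAs and overlaps Dgcr8, was -0.62 (SE 0.17, DESeq2 adjusted p = 0.00197). The other 14 ran from -0.49 for Trmt10b to 0.26 for Trmt44. Trmt6 and Trmt61a, the subunits of one cytosolic methyltransferase, stood at 0.05 and 0.09, and Trmt10c, a protein of mitochondrial RNase P, stood at -0.18 in the authors' deposited table.

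Genomic span moved with the polysome values, and members differ widely in it. Across all 13441 tested genes with an annotated span, Spearman's rho between span and polysome value was 0.38. Across the 56 members it was 0.42 (Pearson's r 0.31), and across the 46 outside RNase P it was 0.28. Genes are not independent replicates, and all points share the same libraries. The median span was 7511 bases for RNase P members, 16161 for all members and 20994 for all genes. All genes were cut by span into 4 classes of equal size. In the shortest class (up to 8558 bases) 31.7% of all genes passed on the negative side, as did 9 of 17 members, or 52.9%. RNase P supplied 5 of those 17 members, and all 5 passed, so much of the members' share there comes from that family. In the next class (up to 20994 bases) the share was 20.9% for all genes and 40% for members, 8 of 20. Of those 20, 3 were RNase P members, and all 3 passed. Above 20994 bases, 1 of 19 members passed on the negative side, the RNase P gene Rpp30, where all genes of the 2 longer classes had shares of 11.1% and 6.37%. All 8 RNase P members in the 2 shorter classes passed. Alkbh8 and Nsun3, with spans of 55924 and 54441 bases, are in the longest class, where the median of all genes was 0.24 and that of the 8 members was -0.12. The part of gene length in the polysome values was not tested.

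**Figure D2:**
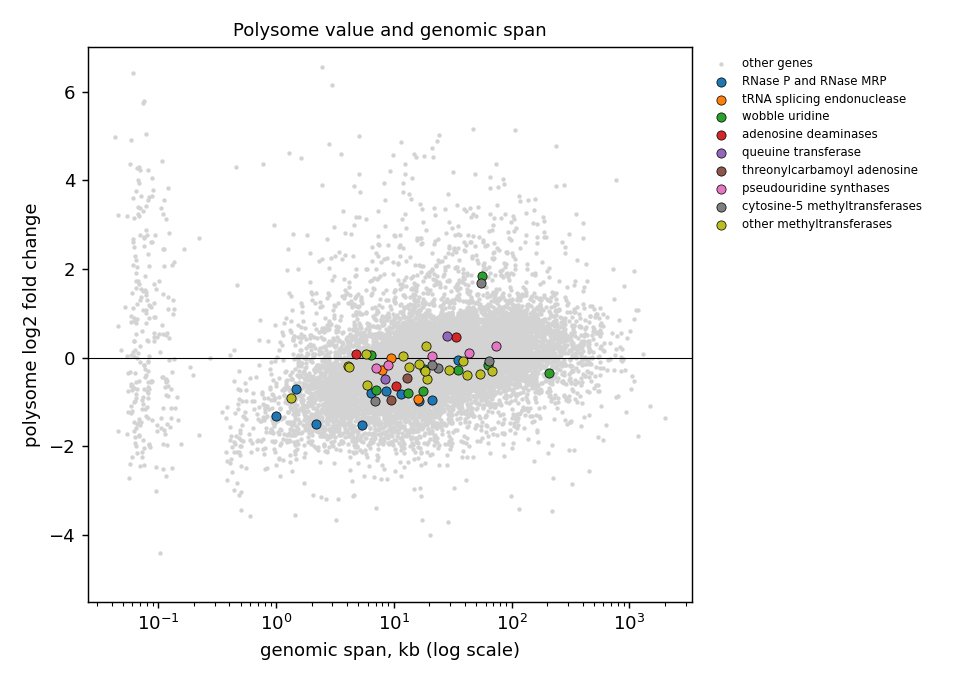
Polysome log2 value (vertical axis) against genomic span in kilobases (horizontal axis, log scale), with 55 of the tested members coloured by enzyme family and other tested genes in grey. Members with short spans lie mostly below 0, and the 2 members called on the positive side lie at the long end.

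Of 54 tested tRNA enzymes with names outside the pattern, 12 passed on the negative side by the authors' deposited values, or 22.2%, where 17.5% of all genes did. On the positive side 1 passed, or 1.85%, against 10.4% of all genes. Their median was -0.32, and 42 lay below 0, or 77.8%, much as among the members. Lage3 and Yrdc act in the same pathway as Osgep, Lage3 as a KEOPS subunit and Yrdc as the maker of its substrate. The authors' deposited table had Lage3 at -1.39 (SE 0.39, DESeq2 adjusted p = 0.0027), Yrdc at -0.65 (adjusted p = 0.0249) and the KEOPS subunit gene Tprkb, not past the threshold, at -0.47 (adjusted p = 0.0792). Hsd17b10, a partner of Trmt10c in mitochondrial RNase P, stood at -0.83 (adjusted p = 0.0022), Dtwd1 at -0.78 and Thg1l, which adds a guanosine to histidine tRNA, at -0.77. Thada, at 0.63 (adjusted p = 0.0415), was the 1 on the positive side. Tarbp1, Tp53rk and Archease are not listed under these symbols and were not analysed here.

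After Lars knockdown, the mRNA and footprint levels of the members moved little. All 54 members in the authors' deposited efficiency table lay within 0.5 of 0 on the log2 scale for mRNA and for footprints, where 92.3% and 86.6% of all 9833 genes did. The members' median change was -0.00193 for mRNA and 0.01 for footprints, against -0.000553 and -0.01 over all genes. The table gives no SE and no test of these changes, so none of them is called. The lowest mRNA values in the authors' deposited table were those of Nsun3 at -0.45, Osgepl1 at -0.44 and Trmt2b, a mitochondrial methyltransferase, at -0.39. The highest were Tsen34 at 0.44, Qtrt1 at 0.43 and Pop5 at 0.36. Low footprint values included Ctu2 at -0.38 and Nsun3 at -0.36, and the highest were Trmt10c at 0.50, Pop4 at 0.48 and Rpp30 at 0.44. In 14 members, or 25.9%, the mRNA value was above 0 and the footprint value below, and in 16, or 29.6%, the reverse held, against 23.7% and 22.0% of all genes. Across the 54 members Spearman's rho between the mRNA and footprint changes was -0.13, and across all genes it was 0.18.

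**Figure D3:**
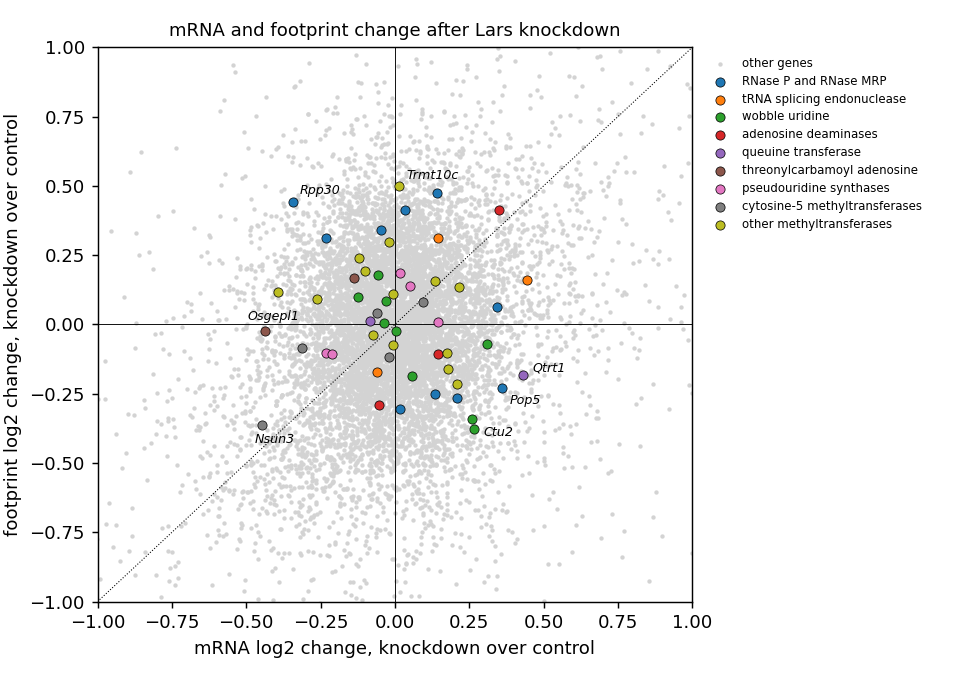
Log2 change after Lars knockdown in footprints (vertical axis) against mRNA (horizontal axis) from the authors' deposited efficiency table, with 53 members coloured by enzyme family, other genes in grey and equal change as a dotted diagonal. Both axes run from -1 to 1, which leaves out 301 genes but no member. The members lie inside 0.5 of 0 on both axes, with Rpp30 above the diagonal and Ctu2, Qtrt1 and Pop5 below it.

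Translational efficiency, the ratio of footprints to mRNA, did not pass for any member. The labels list 1 pooled footprint library without a hairpin, so the replicates behind the xtail p-values are unknown. These p-values cannot be read as tests over known replicates. Of 54 members, 0 passed an xtail adjusted p under 0.05, where 0.0508% of all genes did, and the smallest adjusted p was 0.583. At an unadjusted p under 0.05 there were 4 members, or 4 of 54, where 6.35% of all genes were past it. The median efficiency change was 0.05 for members and -0.01 for all genes. Rpp30 had the smallest p. Its mRNA stood at -0.34 and its footprints at 0.44, with an efficiency value of 0.78 (xtail unadjusted p = 0.0013, adjusted p = 0.583) in the authors' deposited table. The other 3 lay below 0, with Ctu2 at -0.60 (unadjusted p = 0.0258, adjusted p = 0.772), Pop5 at -0.59 (unadjusted p = 0.0441, adjusted p = 0.775) and Qtrt1 at -0.58 (unadjusted p = 0.0185, adjusted p = 0.757). Trmt10c came next, at 0.46 (unadjusted p = 0.109). For the first of the 2 estimates that xtail makes, the authors gave no adjusted p, and it was recomputed here by Benjamini-Hochberg over all genes. By that value Rpp30, Ctu2 and Qtrt1 passed, 3 of 54 members, where 5.2% of all genes did, a share near that of the members.

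The RNase P proteins lay on both sides of 0 in efficiency, and none passed. In the authors' deposited efficiency table Pop5, Rpp21, Pop7, Rpp25l and Pop1 had efficiency values below 0 (-0.59, -0.47, -0.34, -0.26 and -0.28), while Rpp30, Rpp38, Rpp14, Rpp40 and Pop4 had values above 0 (0.78, 0.51, 0.38, 0.37 and 0.34). The family median was 0.04 for efficiency, 0.09 for mRNA and 0.19 for footprints. For Alkbh8 the mRNA value was -0.12, the footprint value 0.10 and the efficiency value 0.22, and for Nsun3 they were -0.45, -0.36 and 0.08. Whether polysome and footprint libraries came from the same cultures is not stated in the labels.

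In control cells the members' median log2 ratio of footprints to mRNA was 0.62 in the authors' deposited table, against 0.04 for all genes, and 39 of 54 lay above 0, or 72.2%, against 51.6%. The other tRNA enzymes had a median of 0.53, with 33 of 53 above 0, or 62.3%. The knockdown median was 0.61. The ratio varied widely between families, with medians of 1.15 for the wobble uridine genes, 1.10 for RNase P and 0.01 for the pseudouridine synthases. Ctu1 at 2.15, Rpp40 at 2.10 and Pop7 at 1.85 stood highest. Rpp14 at -2.12 and Tsen15 at -1.48 stood lowest, and Rpp14 was the only RNase P protein below 0. The ratio has no SE in the table, and its dependence on length and on how footprints were counted was not tested.

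In the PyMT tumors no member passed. Of 57 members in the authors' deposited RiboTag table, 0 had a DESeq2 adjusted p under 0.05, where 0% of all 23487 genes did. At an unadjusted p under 0.05 there was 1 member, where 1.19% of all genes were past it. The median was -0.02 over members and -0.01 over all genes, and 25 of 57 lay above 0. The 1 member was Trmt61b, a mitochondrial methyltransferase, at -1.07 (SE 0.51, 95% interval -2.07 to -0.07, unadjusted p = 0.0368, adjusted p = 1.00). Trmt1l at 0.63 (unadjusted p = 0.206), Adat1 at 0.60 (unadjusted p = 0.251), Qtrtd1 at -0.56 (unadjusted p = 0.273) and Osgepl1 at -0.54 (unadjusted p = 0.298) followed in the authors' deposited table. The members that stood far from 0 in the polysome table were near it here, with Pop5 at 0.11 (SE 0.51), Pop7 at 0.29 (SE 0.53), Rpp21 at -0.22 (SE 0.47), Alkbh8 at -0.02 (SE 0.45) and Nsun3 at -0.19 (SE 0.47). The contrasts differ, and no test set one against the other.

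**Figure D4:**
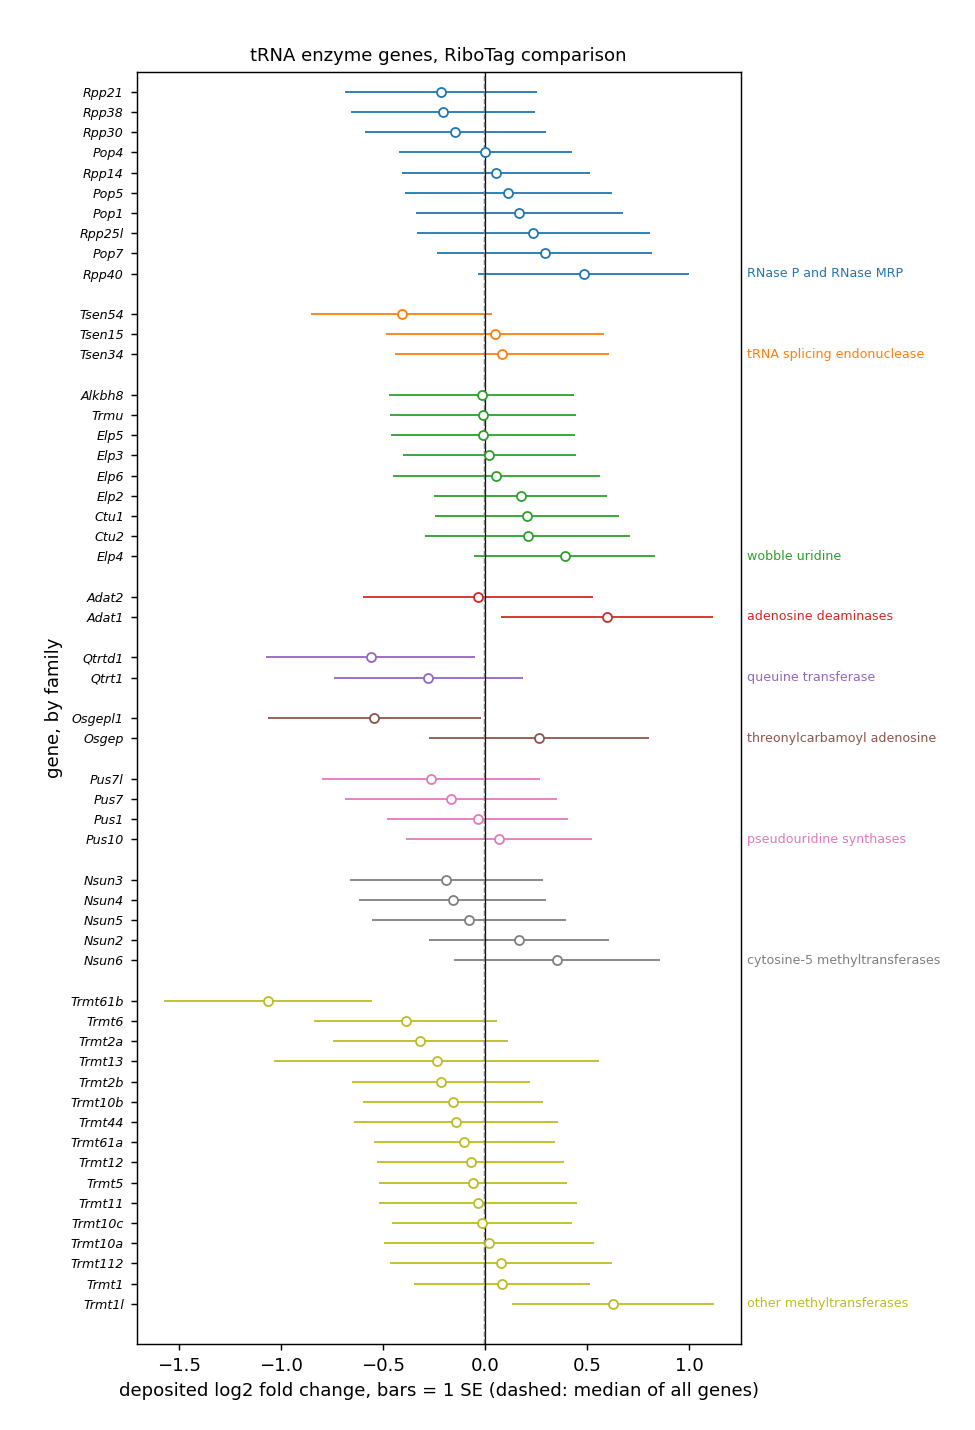
RiboTag log2 values (horizontal axis, with bars of 1 SE on each side) of 53 members whose mean normalized count reached 10, by enzyme family, from the authors' deposited table. Open circles mark members that did not pass an adjusted p under 0.05, which is all of them, and the dashed line is the median of all genes at -0.01. The values run from -1.07 to 0.63, and most bars cross 0.

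The precision of the RiboTag comparison was low. Among the 54 members whose mean normalized count reached 10, the median SE was 0.47, and the 95% interval of 39 of them reached beyond a log2 value of 1 or -1. For 15 the interval lay within those limits, so for these a 2-fold difference is outside the interval. The luminal markers Epcam, Krt8, Krt18, Krt19, Cdh1, Elf5 and Csn3 were all present, with mean normalized counts of 8922 to 255150, and 6 of 7 lay above 0 (median 0.33). Of the markers of other cells, 4 of 4 basal genes (median 1.56), 3 of 3 erythroid genes (median 2.79, with Alas2 at 0.00233), 3 of 5 fibroblast genes (median 0.66) and 3 of 3 listed macrophage genes (median 0.45) lay above 0. So did 0 of 3 T cell genes (median -0.47) and 1 of 3 endothelial genes (median -0.36). Their part in the members' values was not tested. In these ribosome pull-downs from tumors, fewer cells of a type and less RNA per cell cannot be told apart. In 4T07 the polysome table gave mean normalized counts of 8383 for Krt8, 4113 for Krt18 and 632 for Csn3. Cdh1 stood at 124, Krt19 at 40.0, Epcam at 16.4 and Elf5 at 0.0711. Basal genes ran from 0 for the keratin gene Krt5 to 4.05 for Acta2. The highest among markers of other cells were the fibroblast gene Pdgfra at 286, the macrophage gene Cd68 at 141 and the T cell gene Cd3g at 97.9.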

How the data were processed

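All tables were made by the authors; each holds 1 value per gene and comparison. Polysome and RiboTag tables are DESeq2 results per the file headers: a mean normalized count over libraries (signal, deposited by the authors), a deposited log2 fold change with its SE, and deposited p-values with adjusted values. The deposited Wald statistic, a score, is the log2 value over its SE and was only checked. Per the file headers, xtail made the efficiency values, which the authors deposited on the log2 scale. Tools named in the submitters' processing notes, without roles, are STAR 2.5.2a, Bowtie2 2.4.1, HTSeq, featureCounts, SAMtools and DESeq2, with the build mm10.

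Of 9851 efficiency rows, 18 with symbols turned into dates were left out, as were 8 of 23495 RiboTag rows with repeated or missing symbols. Efficiency direction was read from the values: knockdown minus control ratio equals footprint minus mRNA change within 7.33e-05. Genes passed at the deposited adjusted p under 0.05, adjusted over all genes. For the count filters and the 2 single xtail estimates, the adjusted p was recomputed by Benjamini-Hochberg. The 95% intervals are normal intervals from the deposited SE. Text names members that passed (at most 12 per side and table), the 5 smallest p-values where fewer than 5 passed, the 3 highest and lowest per efficiency measure, families of at most 5, Lars, and at most 4 other tRNA enzymes per side by smallest p; Yrdc, Tprkb and further members were named for their role after their values were seen. Members and lists were chosen with earlier results of these data known. Tests planned for counts per library could not be run. Alternatives were other thresholds, count filters, xtail estimates, centring and member lists. The code that adjusts p-values was checked on simulated independent genes with large effects and a single SE, unlike these data. That check bears on the code and not on the calls reported here. Annotation and promoters were RefSeq GRCm38.p6, which matched 58 of 58 members; 10 have no promoter window, and where a gene had several the outermost was used. Tools were pandas 2.3.3, numpy 2.4.6, matplotlib 3.10.9 and scipy 1.17.1 under Python 3.11.15. The human tRNA tables were not used here. Values of some genes are counted in the totals and are not reported here by name or drawn in the figures.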

Additional observations from a re-analysis of the deposited data

How the results depend on the processing

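No paired analysis was possible because the deposited tables hold no value per library. For the same reason, leaving out replicates, a replicate block and a count test with edgeR against DESeq2 were not run. The count of 18 members on the negative side of the polysome table ran from 14 to 20 over the following alternatives. They were adjusted p thresholds of 0.01 and 0.1, mean counts of at least 10 or 100, and leaving out Nsun4, Nsun5 and Trmt112. Nsun4 and Nsun5 act on ribosomal RNA, and Trmt112 is a shared partner. RNase P proteins, most of them shared with RNase MRP, were kept in these alternatives. Outside that family the count was 9 of 46, or 19.6%, where 17.5% of all genes passed. Adding the other tRNA enzymes gave 30, since more genes were counted. Leaving out the members that overlap another annotated gene, an alternative chosen after seeing the data, gave 9 of 29 on the negative side, or 31.0%, and 0 on the positive side, since Alkbh8 and Nsun3 both overlap one. The positive count of 2 became 1 at a mean count of at least 100, which removes Nsun3; Osgepl1 (adjusted p = 0.0466) and Qtrt1 (adjusted p = 0.0490) passed there. The RNase P count of 9 ran from 7 to 9, alternatives also chosen after seeing the data. The efficiency count of 0 became 3 of 54 with the first xtail estimate and its recomputed adjusted p, which called 5.2% of all genes. Those 3 were Rpp30 at 0.79 (recomputed adjusted p = 0.00571), Ctu2 at -0.64 (recomputed adjusted p = 0.0276) and Qtrt1 at -0.61 (recomputed adjusted p = 0.0377). Medians moved by less than the spread under every alternative run. The spread was the median SE of the members (polysome 0.22, RiboTag 0.47) or, for the efficiency table, the standard deviation across members. It describes single genes and not the uncertainty of a median. Centring on all genes took the polysome median from -0.28 to -0.16. RiboTag calls stayed at 0 with the adjusted p recomputed over all rows, whose smallest value was 0.204 against 0.121 deposited. Centring gives no value for counts, and the xtail estimates none for mRNA or footprints. Depth is not given for any named library, which limits every comparison here.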
